A study of Mus musculus with 32 samples.

Results

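Selenoproteins are the proteins that carry selenocysteine, the selenium analogue of cysteine, and 30 mouse genes of this system were followed through cultured fat cells under an inflammatory cytokine and 3 compounds. Of these, 20 encode selenoproteins, 8 encode factors that make or insert selenocysteine, and 2 encode a receptor for selenium uptake and a protein that binds selenium. They were chosen by symbol and known function with earlier results from the same libraries in view, so that counts over them describe the genes and are not independent support for any direction. They are 30 of the 57186 genes in the deposited count table. The filter on low counts kept 28 of them among 14428 genes, and left out Gpx3, which encodes the extracellular glutathione peroxidase, and Dio2, which encodes a deiodinase that activates thyroid hormone. Their highest level in any library was 0.582 CPM for Gpx3 and 0.229 CPM for Dio2 (CPM, counts in 1e6 library counts after normalization).

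The cells were 3T3-L1, an established mouse preadipocyte line that turns into fat cells in culture. All libraries came from this 1 line after differentiation with insulin, dexamethasone and IBMX, and all treatments lasted 24 h. The 8 groups of 4 libraries received DMSO (the vehicle), SCO, CAP7 or rosiglitazone (ROSI), each without or with TNF-alpha (TNF), and the labels call the 4 libraries of a group biological replicates. ROSI is an agonist of PPARγ, a nuclear receptor at the centre of adipocyte differentiation. TNF is an inflammatory cytokine under which fat cells lose expression of lipid storage genes. The labels leave SCO as an abbreviation in a series titled after Artemisia scoparia extract. For CAP7 no description, and for no agent a dose, is given in the sources used here.

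Selenocysteine is encoded by UGA, which otherwise ends translation. A hairpin in the 3' untranslated region, the SECIS element, recruits the binding protein encoded by Secisbp2 and the elongation factor encoded by Eefsec, and these deliver selenocysteinyl-tRNA to the UGA. That tRNA is first charged with serine, then phosphorylated by the product of Pstk, and converted by the product of Sepsecs with selenophosphate from the product of Sephs2. Selenium reaches cells largely as selenoprotein P, taken up by receptors such as that encoded by Lrp8, and is released from selenocysteine by the lyase encoded by Scly. Among the products, glutathione peroxidases remove peroxides, thioredoxin reductases keep thioredoxin reduced, and several small proteins of the cytosol, nucleus and endoplasmic reticulum have a thioredoxin-like fold.

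The recoded codon was read directly from the transcripts. All 20 selenoprotein coding sequences had an in-frame TGA at the annotated selenocysteine, 18 of them 1 and the other two more, 10 in Selenop and 2 in Dio2. The stretches below are 30 coding bases around the first such codon of 8 genes on which the later values turn, with TGA in capitals, from GENCODE M21 on GRCm38, read by transcript and not by the coordinates of the counted build. They are shown because the sites differ in their place: the codon lies early in Selenow, Selenoh, Gpx1, Selenop and Sephs2, inside the message in Selenon and Msrb1, and next to last in Txnrd1.
Selenow, codons 9 to 18 of 88: tattgtggagctTGAggctataagcccaag
Selenoh, codons 34 to 43 of 123: cattgtacgagcTGAcgcgtgtacggccgc
Gpx1, codons 43 to 52 of 201: gtcgcgtctctcTGAggcaccacgatccgg
Selenop, codons 55 to 64 of 380: cttcaagccagcTGAtacttgtgtcttctg
Sephs2, codons 59 to 68 of 452: ggcatgaagggcTGAggctgcaaggtcccc
Selenon, codons 424 to 433 of 557: gaccagtcctgcTGAggttccgggcggact
Msrb1, codons 91 to 100 of 116: caatcaagattcTGAatatttagcagctca
Txnrd1, codons 604 to 613 of 613: ggagacatcctccagtctggctgcTGAggt

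Nonsense-mediated decay is a pathway that removes messages whose stop codon lies well before the last exon junction, so the distance from the recoded TGA to that junction was taken for each gene. In 11 of the 20 genes the first TGA lay more than 50 bases before the last exon junction, and in the other 9 it did not. Selenow (243 bases before), Selenoh (204), Gpx1 (105), Gpx4 (342) and Selenop (357) belonged to the first set. The other 6 of this set were Selenot, Selenof, Selenom, Selenon, Gpx3 and Txnrd2, between 78 and 470 bases before. In the second set were Msrb1, at 34 bases, Selenok, at 5 bases, and Txnrd1, Txnrd3, Selenoi, Selenos, Selenoo and Dio2, whose codon lies past the junction, with Sephs2, whose message is 1 exon.

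**Figure D1:**
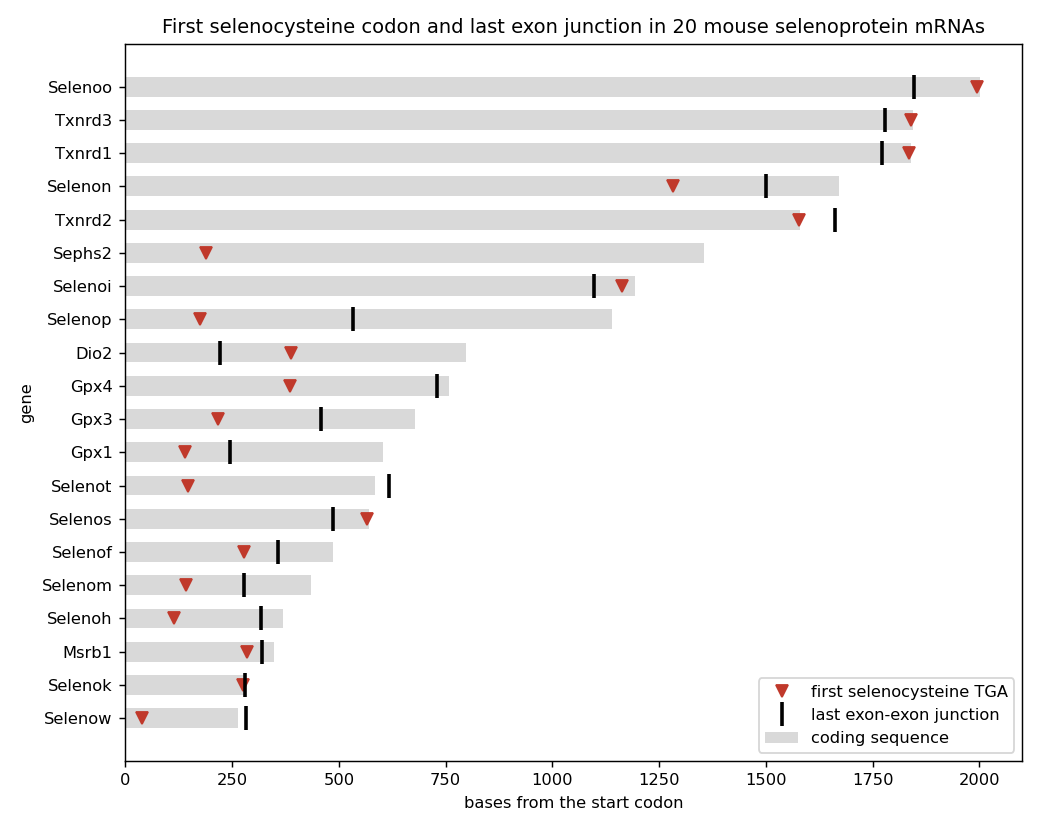
Place of the first selenocysteine TGA (red triangle) and of the last exon junction (black bar) in the 20 selenoprotein messages, in bases from the start codon on the horizontal axis, with the coding sequence in grey and 1 gene per row. The triangle stands left of the bar by more than 50 bases in 11 genes; Sephs2 has no bar because its message is 1 exon.

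Gene expression was measured with QuantSeq, a method that reads near the 3' end of each mRNA. The libraries held between 11.31 and 37.68 M counts (M stands for 1e6), with 20.87 M as the median, and each tested selenium gene other than Lrp8 had at least 97 counts in each library. Fold changes below are log2 values with their standard error, with the spread taken from the fit over all 32 libraries. Each sets 4 libraries against 4, except the interaction terms explained below, which take 4 groups. Levels are CPM, and a gene rose or fell where the adjusted p of edgeR's quasi-likelihood test over all 14428 genes was under 0.05. Median log2 changes over all genes lay within 0.056 of 0 with the normalization used here (TMM). Scaling by library size alone moved that median by -0.156 to -0.067 where a compound was set against its control, which shifts the balance of higher and lower calls, and the split under it is given beside each count it moves. The adipocyte markers were high, with summed levels of 40898 to 43252 CPM in vehicle libraries, whereas Ptprc, Adgre1 and Itgam (leukocytes), Cdh5 and Kdr (endothelium), and Myod1 and Myog (muscle) were at or near 0 in all groups. Other markers of such cells were detected at low levels: group means ran from 0.685 to 1.46 CPM for Csf1r, 0.189 to 0.617 CPM for Lyz2, 0.156 to 1.298 CPM for Pecam1, and 1.58 CPM in ROSI to 4.89 CPM in vehicle for Myh11, a smooth muscle gene. In such bulk samples fewer cells of a type and less RNA per cell cannot be told apart.

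**Figure D2:**
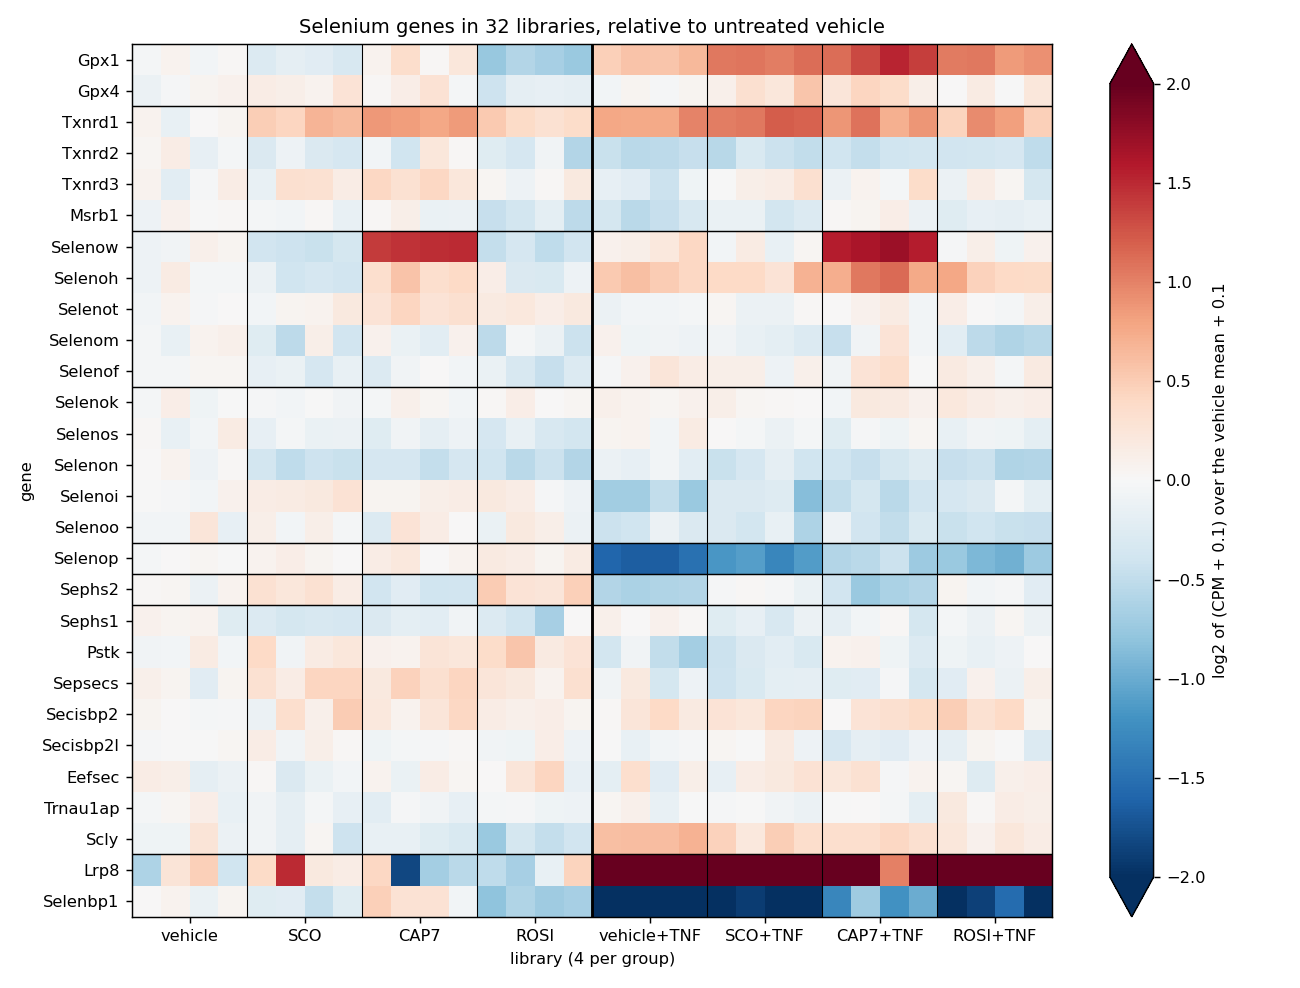
Heat map of the 28 tested genes (rows) in 32 libraries (columns, 4 per group), as log2 of CPM plus 0.1 over the vehicle mean plus 0.1, red above and blue below vehicle, with colours capped at 2 and -2. The CAP7 columns are red for Selenow both without and with TNF, the columns with TNF are blue for Selenop and Selenbp1, and the rows of Secisbp2, Secisbp2l, Eefsec and Trnau1ap are pale.

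The first comparison asked what TNF did in cells that received vehicle. The selenium genes moved in both directions: 6 of 28 rose and 8 fell, where 26.7% and 27.5% of all tested genes rose and fell. The median log2 change of the 28 genes was -0.025, beside -0.013 over all genes. The selenium carrier Selenop and the selenium-binding Selenbp1 fell most, and the receptor Lrp8, the reductase Txnrd1, the lyase Scly and the peroxidase Gpx1 rose. In 12 of the 28 genes the 4 libraries with TNF did not overlap the 4 without, as was true of 50.6% of all tested genes.

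Selenop, which encodes the secreted selenium transporter of plasma, was at 637, 663, 674 and 653 CPM in the vehicle libraries and at 218, 209, 209.8 and 233 with TNF. All TNF libraries were below all vehicle libraries, and the log2 change was -1.59 ± 0.064 (adjusted p = 1.83e-22). Its 3' end overlaps the oppositely oriented Ccdc152 by 439 bases, and the strand setting of the counting is not stated, but Ccdc152 itself had 171 counts in all 32 libraries against 327775 for Selenop. Selenbp1, whose product binds selenium covalently and oxidises methanethiol but has no selenocysteine codon, was at 87.6, 91.9, 79.5 and 91.03 CPM without and 12.99, 10.2, 7.32 and 10.7 CPM with TNF. It fell by 3.09 ± 0.14 (adjusted p = 1.09e-20), again without overlap.

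Lrp8, the receptor that brings selenoprotein P into cells, was barely detected without TNF, at 0.1301, 0.324, 0.396 and 0.168 CPM, which are 2 to 6 counts per library. With TNF it was at 2.43, 2.85, 3.12 and 2.44 CPM, or 56 to 90 counts, and the fitted log2 change was 3.42 ± 0.46 (adjusted p = 5.23e-08). The groups did not overlap, but the level stayed low in both, and the size of the change rests on few counts. A ligand-side and a receptor-side gene of the same uptake route therefore moved in opposite directions under TNF.

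Among the peroxidases, Gpx1, the cytosolic enzyme that reduces hydrogen peroxide, was at 228, 247, 228 and 239 CPM in vehicle and 327, 352, 348 and 368 CPM with TNF. It rose by 0.56 ± 0.0701 (adjusted p = 8.59e-09), with all TNF libraries above all vehicle libraries. Gpx4, which reduces lipid peroxides in membranes and protects cells from ferroptosis, was at 88.98 ± 5.61 and 89.3 ± 3.398 CPM (SD, n = 4), a log2 difference of 0.006 with a 95% interval of -0.16 to 0.18. Gpx3 had a mean of 0.218 CPM in vehicle and no count in any library with TNF alone.

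The 3 thioredoxin reductases did not move together. Txnrd1, the cytosolic enzyme, was at 22.6, 19.4, 21.7 and 22.3 CPM in vehicle and 36.9, 36.3, 36.4 and 42.97 CPM with TNF, and rose by 0.83 ± 0.095 (adjusted p = 1.43e-09). Txnrd2, the mitochondrial enzyme, fell by 0.49 ± 0.11, from 17.5, 18.9, 15.2 and 16.7 to 12.6, 11.7, 11.9 and 12.4 CPM (adjusted p = 0.000178). Neither pair of groups overlapped. Txnrd3, the thioredoxin and glutathione reductase, had a log2 difference of -0.22 ± 0.11 (adjusted p = 0.0804), called with the stricter filter and in a fit of the groups compared alone (adjusted p = 0.0494 and 0.0194). Msrb1, which repairs oxidised methionine, fell by 0.42 ± 0.075 (adjusted p = 1.02e-05), from 71.4, 81.8, 76.6 and 77.8 CPM to 59.98, 52.6, 56.1 and 61.6 CPM without overlap.

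Of 5 small selenoproteins with a thioredoxin-like fold, set apart here from the peroxidases, 2 rose with TNF. Selenoh, a redox protein of the nucleus and nucleolus, was at 12.8, 15.4, 13.4 and 13.4 CPM in vehicle and 19.7, 20.8, 19.6 and 18.3 CPM with TNF, a rise of 0.515 ± 0.11 (adjusted p = 0.00019) without overlap. Selenow, a small cytosolic redox protein, was at 39.3, 40.1, 45.5 and 44 and 44.9, 46.02, 48.7 and 56.6 CPM, and these ranges overlapped. Its rise of 0.22 ± 0.074 (adjusted p = 0.0115) was lost without vehicle replicate 1 and TNF replicate 4 in turn (0.18 and 0.14, adjusted p = 0.0594 and 0.113). Selenot and Selenom of the endoplasmic reticulum and Selenof, a partner of the glycoprotein folding sensor UGGT, had log2 differences of -0.065, -0.041 and 0.12, none called.

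Among the membrane and organelle selenoproteins, Selenoi, the ethanolamine phosphotransferase that makes phosphatidylethanolamine, fell by 0.65 ± 0.0901 (adjusted p = 8.11e-08). It was at 74.01, 73.5, 72 and 78.9 CPM in vehicle and 45.9, 46.1, 53.1 and 44.5 CPM with TNF, and the groups did not overlap. Selenoo, a mitochondrial protein that attaches AMP to its targets, fell by 0.31 ± 0.12 (adjusted p = 0.0264), a call lost without any 1 of vehicle replicate 3 and TNF replicates 1 and 2 (log2 -0.28 to -0.21, adjusted p from 0.0659 to 0.154), and also with no filter on low counts (adjusted p = 0.0707). It shares 510 exonic bases with the oppositely oriented Tubgcp6. Selenok and Selenos, which work in disposal of misfolded proteins at the endoplasmic reticulum, and Selenon, a protein of that membrane tied to calcium handling, were not called, with log2 differences of 0.078, 0.058 and -0.13.

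Among the genes of the machinery, Sephs2, which makes selenophosphate and is itself a selenoprotein, was at 25.5, 25.8, 23.1 and 26.4 CPM in vehicle and 16.8, 16.2, 16.6 and 16.8 CPM with TNF, a change of -0.601 ± 0.083 (adjusted p = 8.39e-08) without overlap. Of the 8 factors that carry no selenocysteine, 1 rose and 1 fell. Scly, the lyase that frees selenium from selenocysteine, was at 21, 20.9, 26.6 and 20.5 CPM without and 33.9, 34.04, 34.02 and 36.1 CPM with TNF, and rose by 0.63 ± 0.0925 (adjusted p = 2.49e-07). Pstk, the kinase of the tRNA pathway, fell by 0.39 ± 0.12 (adjusted p = 0.00404), from 13.2, 13.3, 15.5 and 13.3 to 10.7, 13.1, 9.78 and 8.63 CPM, but 3392 of its exonic bases lie opposite Ikzf5, which had 17087 counts in all against 9160 for Pstk. Sepsecs, Secisbp2, Secisbp2l, Eefsec, Trnau1ap (a protein that binds the selenocysteine tRNA) and Sephs1 (a paralog of Sephs2) had log2 differences between -0.073 and 0.22, none called.

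Markers of cell identity moved with the same comparison. The summed adipocyte markers were at 40898 to 43252 CPM in vehicle and 12412 to 14546 with TNF, and all 9 tested markers fell. The summed macrophage and leukocyte markers were at 1.78 to 4.03 and 10.6 to 14.1 CPM, mostly Cd68 (10.5 CPM with TNF), with Ptprc, Adgre1 and Itgam at or near 0, and 1 of the 3 tested markers rose. The preadipocyte and fibroblast sum was 2197 to 2506 CPM in vehicle and 1134 to 1205 with TNF. Of its 6 tested markers 1 rose and 3 fell: Pdgfra went from 26.4 to 56.7 CPM, whereas Col3a1 went from 1392 to 575 CPM and Dlk1 from 808 to 433 CPM. What part these shifts had in the changes of selenium genes was not tested.

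**Figure D3:**
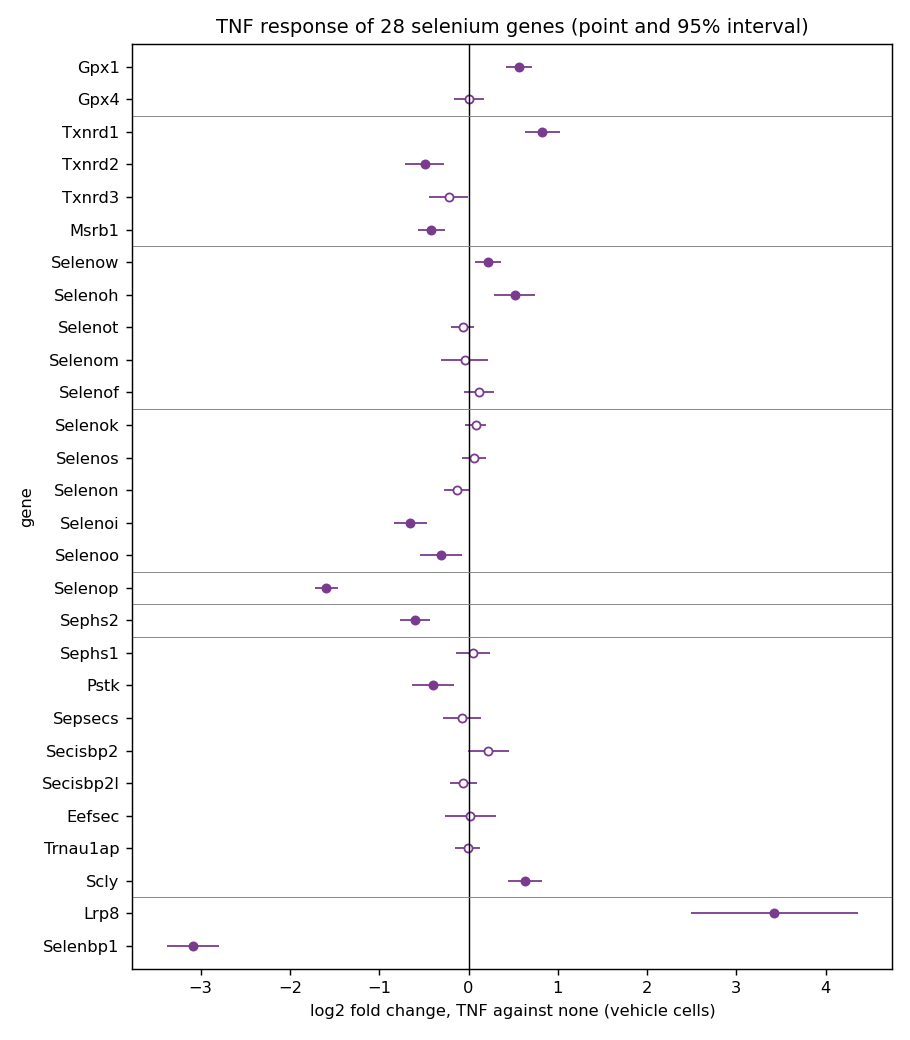
Log2 change with TNF in vehicle-treated cells for the 28 tested genes, grouped by role from peroxidases at the top to uptake and binding at the bottom. Points are edgeR estimates with 95% intervals, filled where the adjusted p was under 0.05; 6 filled points lie right of 0 and 8 left of it, with Lrp8 at 3.42 and Selenbp1 at -3.09 farthest out.

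Each compound was next compared with vehicle in the absence of TNF. CAP7 raised Selenow, which SCO and ROSI lowered, and all 3 compounds raised Txnrd1 and lowered Selenon. Gpx1 and Selenbp1 fell most with ROSI. Of the 28 genes 3 rose and 4 fell with SCO, where 10.3% and 8.99% of all genes did, 6 rose and 2 fell with CAP7 (all genes 15.2% and 15%), and 4 rose and 11 fell with ROSI (all genes 18.4% and 19%). With library size alone these splits were 1 and 8, 4 and 7, and 2 and 13. The 3 comparisons share the vehicle libraries, so their values stand side by side and are not independent of each other.

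Selenow separated the compounds. It was at 39.3, 40.1, 45.5 and 44 CPM in vehicle and at 111, 115, 118 and 119 CPM with CAP7, a rise of 1.46 ± 0.074 (adjusted p = 2.39e-17), or 2.75-fold. It was at 32.5, 31.5, 30.9 and 33.2 CPM with SCO and 30.3, 33.4, 29.5 and 32.4 CPM with ROSI, changes of -0.395 ± 0.076 (adjusted p = 0.000173) and -0.43 ± 0.076 (adjusted p = 1.66e-05). Every CAP7 library lay above every vehicle library, and every SCO and ROSI library below. Selenoh, with the same type of fold, rose with CAP7 by 0.42 ± 0.11 (adjusted p = 0.00458), to 17.4, 20.3, 17.3 and 18.2 CPM from 12.8, 15.4, 13.4 and 13.4, and had uncalled differences of -0.3 ± 0.12 with SCO and -0.12 ± 0.12 with ROSI. The SCO difference was called lower with library size alone (adjusted p = 0.0282).

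Selenot rose with CAP7 by 0.32 ± 0.063 (adjusted p = 9.94e-05), from 75.1, 81.6, 76.9 and 77.9 to 93.7, 105, 93.8 and 97.1 CPM without overlap. With ROSI its rise of 0.18 (adjusted p = 0.023) was lost without any 1 of vehicle replicates 1 and 3 and ROSI replicate 2 (log2 0.16 to 0.17, adjusted p from 0.0513 to 0.0655), and also with library size alone and with no filter on low counts (adjusted p = 0.659 and 0.129). Selenof fell with ROSI (-0.29 ± 0.083, adjusted p = 0.00502), to 128, 113, 102 and 116 CPM from 136, 137, 144 and 145. Selenom was not called for any compound without TNF, but with library size alone it was called lower with ROSI (log2 -0.411, adjusted p = 0.0115). That scaling also called Selenof lower with SCO and CAP7 (adjusted p = 0.0197 and 0.0484). For SCO, a fit of the groups compared alone called Selenof lower too (adjusted p = 0.018).

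Txnrd1 rose with every compound. From 22.6, 19.4, 21.7 and 22.3 CPM in vehicle it stood at 30.3, 29.04, 34.4 and 33.6 CPM with SCO, 39.3, 38.6, 36.7 and 39.04 CPM with CAP7 and 30.9, 28.02, 26.6 and 27.9 CPM with ROSI. The rises were 0.565 ± 0.097 (adjusted p = 3.38e-05), 0.84 ± 0.095 (adjusted p = 6.8e-09) and 0.4 ± 0.097 (adjusted p = 0.000999), and none of the 3 groups overlapped vehicle. Txnrd3 rose with CAP7 by 0.34 ± 0.11 (adjusted p = 0.0129), a call lost without vehicle replicate 2 (0.28, adjusted p = 0.0697), and also with library size alone (adjusted p = 0.0971). Txnrd2 fell with ROSI (-0.298 ± 0.11, adjusted p = 0.0278), lost without any 1 of vehicle replicates 1 and 2 and ROSI replicates 2 and 4 (log2 -0.29 to -0.21, adjusted p from 0.0597 to 0.144), and also with no filter on low counts and in a fit of the groups compared alone (adjusted p = 0.097 and 0.0733). With SCO, Txnrd2 was called lower with library size alone (adjusted p = 0.0304). Msrb1 fell with ROSI (-0.38 ± 0.075, adjusted p = 7.44e-05), to 55.6, 59.8, 67.2 and 53.4 CPM, below all vehicle libraries, and differed by -0.056 and -0.025 with SCO and CAP7, neither called.

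Because Txnrd1 is a textbook target of the stress factor NRF2, the RefSeq promoter windows (GRCm38.p6, 250 bases before to 50 after each gene's start) were searched for the antioxidant response element core, TGACNNNGC, on both strands. It was found in 12.4% of 32851 windows and in 3 of the 29 windows of these genes, those of Lrp8, Txnrd1 and Selenok. The sites are shown with 10 bases on either side, on the strand of the gene, with the core in capitals; that of Txnrd1 reads on the other strand.
Txnrd1, chr10:82859104-82859132, + strand, core starting 92 bases before the gene start: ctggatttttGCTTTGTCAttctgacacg
Lrp8, chr4:107802840-107802868, + strand, core starting 35 bases before: cagtcttttcTGACAATGCgtttccgggg
Selenok, chr14:29968326-29968354, + strand, core starting 44 bases before: gttacttgtgTGACTGGGCggaacctcta
An NF-κB site (in 1.63% of windows), a PPAR direct repeat (in 0.0396%) and the C/EBP site TTGCGCAA (in 0.183%) were found in none of the 29 windows, and a CRE (TGACGTCA, in 1.79%) was in that of Dio2. Such a match describes the letters in these windows and shows no binding, and a window without a match says nothing of the factor. Of the 3 genes with the core, Txnrd1 was called in 5 of the 7 comparisons with a control, Lrp8 in 1 and Selenok in none.

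Gpx1 was at 228, 247, 228 and 239 CPM in vehicle, 196, 208, 201 and 189 CPM with SCO and 139.8, 157, 148 and 141 CPM with ROSI. It fell with ROSI (-0.69 ± 0.071, adjusted p = 3.15e-10) and with SCO (-0.25 ± 0.0705, adjusted p = 0.00969), with all libraries of both below vehicle. With CAP7 it was at 248, 301, 241 and 275 CPM, which overlapped vehicle (0.18 ± 0.0701, adjusted p = 0.0542), a difference called with the replicate block and in a fit of the groups compared alone (adjusted p = 0.0427 and 0.0369). Gpx4 fell with ROSI (-0.23 ± 0.084, adjusted p = 0.0286), a call lost without any 1 of vehicle replicates 3 and 4 and ROSI replicate 1 (log2 -0.21 to -0.175, adjusted p from 0.0779 to 0.133). The direction under ROSI was thus down for both measured peroxidases and for Msrb1.

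Of the membrane selenoproteins, Selenon fell with each compound. It was at 33.8, 35.5, 31.5 and 34.1 CPM in vehicle, 25.98, 23.7, 25.4 and 24.7 CPM with SCO, 26.7, 26.7, 24.2 and 26.7 CPM with CAP7 and 25.6, 23.2, 25.03 and 22.5 CPM with ROSI. The changes were -0.43 ± 0.075 (adjusted p = 3.48e-05), -0.37 ± 0.0735 (adjusted p = 0.000138) and -0.48 ± 0.074 (adjusted p = 1.46e-06), without overlap. Selenos fell with ROSI (-0.29 ± 0.067, adjusted p = 0.00059), from 135, 120.4, 128 and 149 to 105, 119.6, 107 and 103 CPM without overlap. Selenok, Selenoi and Selenoo were not called for any compound here, with log2 differences between -0.037 and 0.201. In a fit of the groups compared alone Selenoi was called higher with SCO (adjusted p = 0.0188). Selenos was called lower with CAP7 with library size alone and with the stricter filter (adjusted p = 0.0033 and 0.043).

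Selenop, the selenium carrier, was called for no compound without TNF, though its ROSI difference was called with DESeq2 and in a fit of the groups compared alone (adjusted p = 0.0491 and 0.0444). It differed by 0.066 ± 0.063 with SCO, 0.11 ± 0.063 with CAP7 and 0.14 ± 0.063 with ROSI, at means from 657 to 723 CPM over the 4 groups. Selenbp1 fell with ROSI (-0.698 ± 0.13, adjusted p = 2.69e-05), to 49.8, 57.3, 53.6 and 55.2 CPM from 87.6, 91.9, 79.5 and 91.03, below every vehicle library. With SCO it was at 73.9, 74.6, 63.03 and 74.3 CPM, also below, though the adjusted p was 0.108, and the fall was called with library size alone, with no filter on low counts and in a fit of the groups compared alone (adjusted p = 0.0442, 0.0103 and 0.00269). With CAP7 it was at 122, 107, 107 and 83.8 CPM, which overlapped vehicle (adjusted p = 0.116), a difference called with no filter on low counts and in a fit of the groups compared alone (adjusted p = 0.0165 and 0.0185). Lrp8 had at most 0.896 CPM in any library without TNF and was not called.

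Sephs2, the selenophosphate synthetase, split the compounds. It was at 25.5, 25.8, 23.1 and 26.4 CPM in vehicle, 35.8, 30.3, 29.95 and 35.1 CPM with ROSI, 31.2, 29.6, 31.1 and 28.1 CPM with SCO and 19.3, 21.4, 19.1 and 19.3 CPM with CAP7. It rose by 0.38 ± 0.081 with ROSI (adjusted p = 0.000224) and fell by 0.35 ± 0.083 with CAP7 (adjusted p = 0.00108). The rise of 0.25 ± 0.0825 with SCO (adjusted p = 0.028) was lost without any 1 of vehicle replicates 1 and 3 and SCO replicates 1 and 3 (log2 0.21 to 0.25, adjusted p from 0.0576 to 0.105), and also with library size alone and with no filter on low counts (adjusted p = 0.12 and 0.155). None of the 3 groups overlapped vehicle.

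Among the other factors, Scly fell with ROSI (-0.49 ± 0.0965, adjusted p = 8.19e-05), to 13.3, 17.4, 15.96 and 17.1 CPM from 21, 20.9, 26.6 and 20.5, and Sephs1 fell with SCO (-0.33 ± 0.098, adjusted p = 0.0144). With ROSI the fall of Sephs1 (-0.32 ± 0.096, adjusted p = 0.00819) was lost without ROSI replicate 3 (-0.22, adjusted p = 0.0703). Sepsecs, the last enzyme of the tRNA pathway, rose with SCO by 0.34 ± 0.11 (adjusted p = 0.0236) and with CAP7 by 0.36 ± 0.11 (adjusted p = 0.00873). The SCO call was lost without any 1 of vehicle replicate 3 and SCO replicates 3 and 4 (log2 0.27 to 0.31, adjusted p from 0.0724 to 0.112), and also with library size alone (adjusted p = 0.0727). The CAP7 call was lost without vehicle replicate 3 (0.29, adjusted p = 0.0534), and also with library size alone (adjusted p = 0.0697). Pstk rose with ROSI by 0.35 ± 0.11 (adjusted p = 0.0133), lost without ROSI replicate 2 (0.285, adjusted p = 0.0654), and also with library size alone (adjusted p = 0.147). Secisbp2, Secisbp2l, Eefsec and Trnau1ap were called for no compound, with differences between -0.12 and 0.24. With library size alone Trnau1ap was called lower with CAP7 and ROSI (adjusted p = 0.00823 and 0.0181). That scaling also called Sephs1 and Scly lower with CAP7 (adjusted p = 0.0129 and 0.00833), and the stricter filter called Scly lower there (adjusted p = 0.0486).

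**Figure D4:**
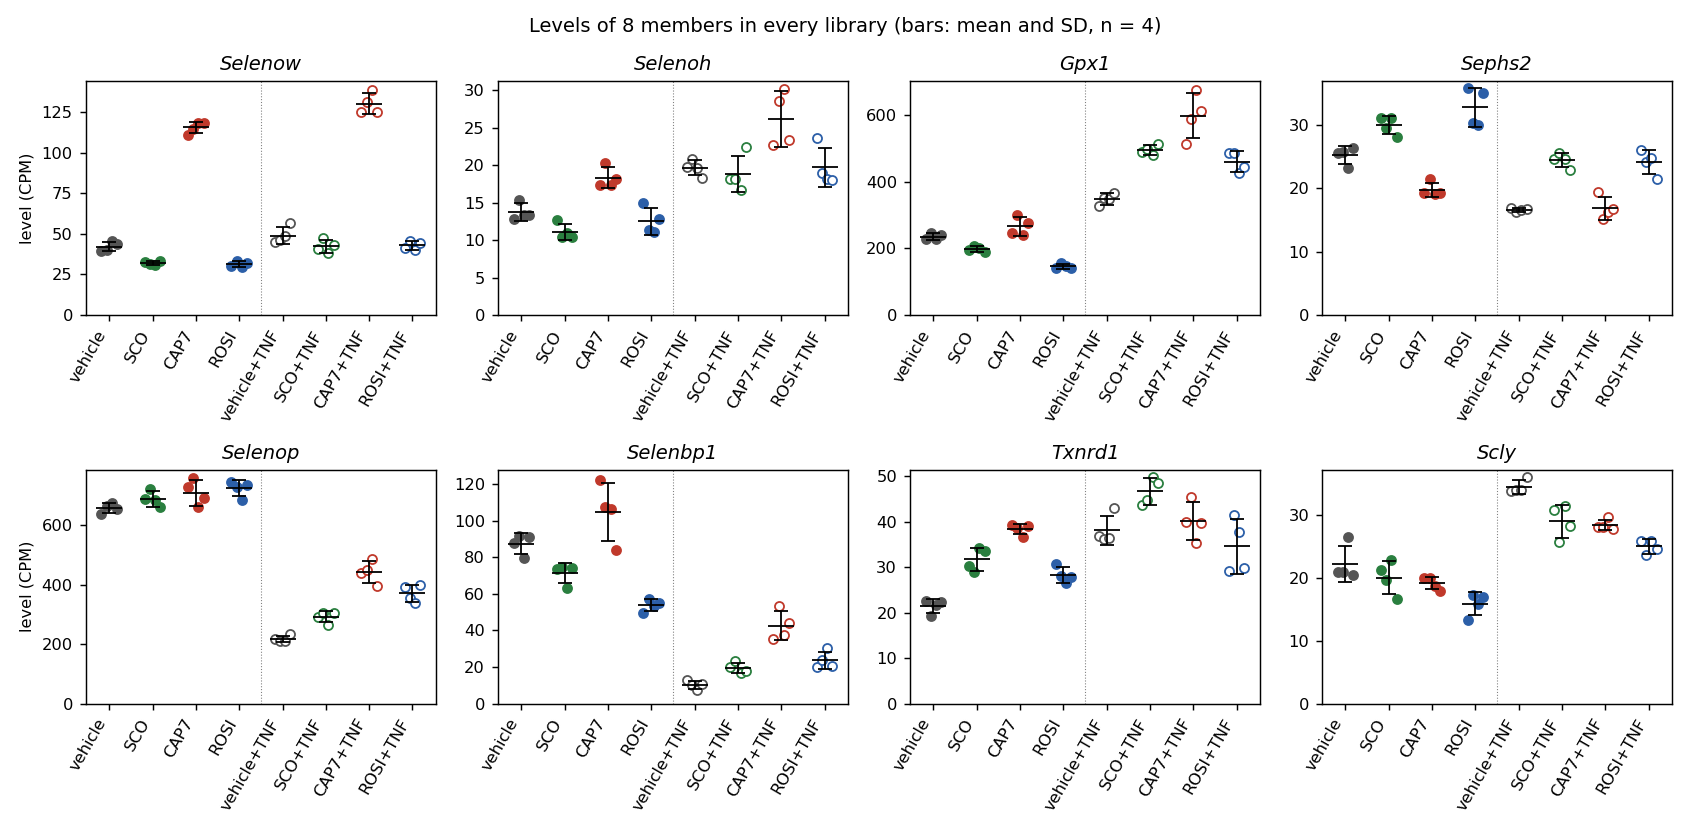
Levels in CPM of 8 genes in every library, 1 panel per gene, with filled points for groups without TNF and open points for groups with TNF; bars give the mean and SD of 4 libraries and each vertical axis starts at 0. Selenow stands at 111 CPM or more in all 8 CAP7 libraries and at 56.6 CPM or less in all others, and Selenop lies at 637 CPM or more without TNF and at 487 CPM or less with it.

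In cells with TNF, each compound was compared with TNF alone. The genes that TNF had lowered most, Selenbp1 and Selenop, rose with every compound, and Gpx1, which TNF had raised, rose further with every compound. Selenow rose with CAP7 as it did without TNF. Of the 28 genes 8 rose and 4 fell with SCO (all genes 13.2% and 8.09%), 9 rose and 2 fell with CAP7 (all genes 18% and 14.2%), and 7 rose and 5 fell with ROSI (all genes 19.6% and 16.3%). With library size alone the splits were 6 and 4, 6 and 5, and 5 and 9. The count for SCO was 7 without TNF replicate 2 and 6 without TNF replicate 3, against 12.

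Selenbp1 was at 12.99, 10.2, 7.32 and 10.7 CPM with TNF alone, 20.2, 23.3, 16.9 and 17.8 CPM with SCO, 35.5, 53.4, 37.8 and 43.9 CPM with CAP7 and 20.1, 23.9, 30.2 and 20.7 CPM with ROSI. It rose by 0.93 ± 0.14 (adjusted p = 3.61e-06), 2.05 ± 0.14 (adjusted p = 7.51e-15) and 1.22 ± 0.14 (adjusted p = 4.5e-09). Every library with a compound lay above every library with TNF alone, and all of them lay below the vehicle libraries without TNF, whose lowest level was 79.5 CPM.

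Selenop was at 218, 209, 209.8 and 233 CPM with TNF alone, 291, 306, 265 and 303 CPM with SCO, 438, 449.6, 487 and 396 CPM with CAP7 and 392.04, 353, 339 and 397 CPM with ROSI. The rises were 0.42 ± 0.063 (adjusted p = 2.03e-06), 1.02 ± 0.064 (adjusted p = 4.4e-16) and 0.77 ± 0.063 (adjusted p = 7.92e-13), without overlap. The receptor Lrp8 differed by 0.88 ± 0.33 with SCO, -0.755 ± 0.35 with CAP7 and 0.18 ± 0.33 with ROSI (adjusted p = 0.0511, 0.094 and 0.737), none called at its low counts. Whether it was called depended on the fit: the SCO difference was called with no filter on low counts, with DESeq2, with limma-voom and in a fit of the groups compared alone (adjusted p = 0.0405, 0.0267, 0.00422 and 0.00481), and that of CAP7 with limma-voom (adjusted p = 0.0102).

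Gpx1 was at 327, 352, 348 and 368 CPM with TNF alone, 489, 498, 479 and 514 CPM with SCO, 512, 589.8, 676 and 614 CPM with CAP7 and 485, 488, 425 and 443 CPM with ROSI, again without overlap. It rose by 0.51 ± 0.0696 (adjusted p = 4.3e-07), 0.78 ± 0.0698 (adjusted p = 1.2e-11) and 0.401 ± 0.0696 (adjusted p = 1.14e-05). For SCO and ROSI this is the opposite of the direction without TNF. Gpx4 rose with SCO by 0.304 ± 0.083 (adjusted p = 0.00629), lost without TNF plus SCO replicate 4 (0.215, adjusted p = 0.0622). With CAP7 it rose by 0.29 ± 0.083 (adjusted p = 0.00608), lost with library size alone (adjusted p = 0.0767), and with ROSI it differed by 0.097 ± 0.083, not called.

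Among the reductases, Msrb1 rose with CAP7 by 0.44 ± 0.074 (adjusted p = 9.42e-06), from 59.98, 52.6, 56.1 and 61.6 to 77.8, 79.5, 84 and 71.02 CPM. With SCO it differed by 0.196 (adjusted p = 0.0553), called with the stricter filter and with limma-voom (adjusted p = 0.0481 and 0.0498). With ROSI its rise of 0.23 ± 0.074 (adjusted p = 0.0128) was lost without TNF replicate 2 and TNF replicate 3 in turn (0.175 and 0.202, adjusted p = 0.0902 and 0.0533), and also with library size alone (adjusted p = 0.429). Txnrd1, which every compound raised without TNF, rose with SCO by 0.29 ± 0.0903 (adjusted p = 0.0164), lost without any 1 of TNF replicates 2 and 3 and TNF plus SCO replicate 3 (log2 0.26 to 0.27, adjusted p from 0.0538 to 0.0602), and also with library size alone (adjusted p = 0.0739). It differed by 0.071 ± 0.091 with CAP7 and -0.13 ± 0.091 with ROSI, neither called. The ROSI difference was called lower with library size alone (log2 -0.286, adjusted p = 0.0111). Txnrd3 rose with SCO by 0.37 ± 0.11 (adjusted p = 0.00919), lost without TNF replicate 3 (0.31, adjusted p = 0.0569). With CAP7 its rise of 0.304 ± 0.11 (adjusted p = 0.0248) was lost without any 1 of TNF replicates 2 and 3 and TNF plus CAP7 replicate 4 (log2 0.19 to 0.3, adjusted p from 0.0521 to 0.18), and also with library size alone (adjusted p = 0.14). Txnrd2 was called for no compound.

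Selenow was at 44.9, 46.02, 48.7 and 56.6 CPM with TNF alone and 126, 132, 139 and 125 CPM with CAP7, a rise of 1.41 ± 0.072 (adjusted p = 1.87e-18) without overlap. With SCO it fell by 0.21 ± 0.073 (adjusted p = 0.0308), lost without any 1 of TNF replicates 3 and 4 and TNF plus SCO replicates 1 and 3 (log2 -0.21 to -0.14, adjusted p from 0.057 to 0.211), and also with no filter on low counts and in a fit of the groups compared alone (adjusted p = 0.101 and 0.0626). With ROSI it fell by 0.19 ± 0.073 (adjusted p = 0.0359), lost without any 1 of TNF replicate 4 and TNF plus ROSI replicates 1 and 3 (log2 -0.18 to -0.14, adjusted p from 0.085 to 0.159), and also with no filter on low counts and in a fit of the groups compared alone (adjusted p = 0.1 and 0.0681). Selenoh rose with CAP7 by 0.42 ± 0.11 (adjusted p = 0.0024), to 22.7, 28.5, 30.2 and 23.3 CPM from 19.7, 20.8, 19.6 and 18.3, and differed by -0.064 and -0.001 with SCO and ROSI. Selenom fell with ROSI (-0.43 ± 0.13, adjusted p = 0.00818), from 18.7, 16.6, 16.7 and 16.5 to 15.3, 12.3, 11.6 and 12 CPM. Selenow and Selenoh were thus higher with CAP7 both without and with TNF.

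Selenon fell with ROSI (-0.39 ± 0.073, adjusted p = 3.58e-05), from 31.2, 30.2, 32.3 and 29.2 to 24.5, 24.9, 22.2 and 22.3 CPM without overlap. With CAP7 it fell by 0.23 ± 0.072 (adjusted p = 0.011), lost with no filter on low counts (adjusted p = 0.099). With SCO it fell by 0.205 ± 0.072 (adjusted p = 0.0374), lost without any 1 of TNF replicates 1, 2 and 3 and TNF plus SCO replicates 1, 2 and 4 (log2 -0.21 to -0.17, adjusted p from 0.0634 to 0.133), and also with no filter on low counts and in a fit of the groups compared alone (adjusted p = 0.239 and 0.0545). Selenoi rose with ROSI by 0.45 ± 0.0896 (adjusted p = 9.82e-05), from 45.9, 46.1, 53.1 and 44.5 to 59.4, 60.9, 72.6 and 65.4 CPM. With SCO its rise of 0.25 ± 0.0896 (adjusted p = 0.0376) was lost without any 1 of TNF replicates 1, 2 and 4 and TNF plus SCO replicates 1, 2 and 3 (log2 0.21 to 0.24, adjusted p from 0.0865 to 0.142), and also with library size alone and in a fit of the groups compared alone (adjusted p = 0.152 and 0.112). Selenos fell with ROSI (-0.18 ± 0.067, adjusted p = 0.0279), lost without any 1 of TNF replicate 4 and TNF plus ROSI replicates 1 and 4 (log2 -0.18 to -0.16, adjusted p from 0.0626 to 0.0918), and also with no filter on low counts (adjusted p = 0.0703). Selenok, Selenoo, Selenot and Selenof were called for no compound with TNF. With library size alone Selenoo was called lower with ROSI (adjusted p = 0.0421) and Selenos lower with CAP7 (adjusted p = 0.006). In a fit of the groups compared alone Selenoi was called higher with CAP7 (adjusted p = 0.0471).

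Sephs2 was at 16.8, 16.2, 16.6 and 16.8 CPM with TNF alone, 24.7, 25.6, 24.7 and 22.9 CPM with SCO, 26.1, 24.2, 24.8 and 21.5 CPM with ROSI and 19.4, 15.1, 16.3 and 16.7 CPM with CAP7. It rose by 0.56 ± 0.082 with SCO (adjusted p = 1.24e-06) and 0.54 ± 0.082 with ROSI (adjusted p = 1.16e-06), both without overlap, and differed by 0.023 ± 0.083 with CAP7. Scly fell with ROSI (-0.46 ± 0.091, adjusted p = 7.04e-05), to 25.99, 23.6, 25.9 and 24.6 CPM from 33.9, 34.04, 34.02 and 36.1, and with CAP7 (-0.28 ± 0.0897, adjusted p = 0.0143), to 28.1, 28.2, 29.7 and 27.9 CPM. With SCO its change of -0.25 (adjusted p = 0.045) was lost without any 1 of TNF replicates 1, 2, 3 and 4 and TNF plus SCO replicates 2 and 4 (log2 -0.255 to -0.19, adjusted p from 0.0645 to 0.182), and also with no filter on low counts (adjusted p = 0.12). Pstk rose with CAP7 by 0.35 ± 0.11 (adjusted p = 0.016), lost without any 1 of TNF replicates 3 and 4 and TNF plus CAP7 replicates 1 and 2 (log2 0.26 to 0.31, adjusted p from 0.0581 to 0.0989), and also with library size alone and in a fit of the groups compared alone (adjusted p = 0.103 and 0.0568). With ROSI its rise of 0.31 ± 0.11 (adjusted p = 0.0292) was lost without any 1 of TNF replicates 1, 3 and 4 and TNF plus ROSI replicate 4 (log2 0.21 to 0.305, adjusted p from 0.0596 to 0.187), and also with library size alone, with no filter on low counts and in a fit of the groups compared alone (adjusted p = 0.303, 0.0886 and 0.0545). Sephs1 fell with SCO (-0.27 ± 0.094, adjusted p = 0.0362), lost without any 1 of TNF replicates 1, 2, 3 and 4 and TNF plus SCO replicates 1, 2 and 3 (log2 -0.28 to -0.23, adjusted p from 0.051 to 0.118), and also with no filter on low counts (adjusted p = 0.0528). Sepsecs, Secisbp2, Secisbp2l, Eefsec and Trnau1ap were called for no compound with TNF. With library size alone Secisbp2l was called lower with CAP7 and ROSI (adjusted p = 0.00578 and 0.0398). That scaling also called Sephs1 lower with CAP7 and ROSI (adjusted p = 0.0117 and 0.0209).

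Marker sums moved here as well. Adipocyte markers summed to 12412 to 14546 CPM with TNF alone, 33046 to 40338 with SCO, 35756 to 44449 with CAP7 and 52213 to 65176 with ROSI. The leukocyte sum was 10.6 to 14.1 CPM with TNF alone and 7.37 to 8.19, 5.05 to 7.675 and 5.58 to 6.98 CPM with the compounds. Without TNF the adipocyte sum was 40898 to 43252 CPM in vehicle and 62676 to 70724, 52474 to 65559 and 69792 to 83461 CPM with SCO, CAP7 and ROSI. Most of that rise lay in 1 gene, Fabp4, a fatty acid carrier, whose means were 15841 CPM in vehicle and 37300.0, 30831 and 45168 CPM with the compounds. Of the 9 tested markers, without TNF, 4 higher and 1 lower were called with SCO, 7 higher and 1 lower with CAP7 and 6 higher and 1 lower with ROSI, and with TNF 8 higher and 0 lower, 9 higher and 0 lower, and 8 higher and 0 lower. The lower gene without TNF was Pparg, at 572 CPM in vehicle and 405, 406 and 262 CPM, and Adipoq, for adiponectin, was at 9633, 8874, 8652 and 11234 CPM.

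Preadipocyte and fibroblast markers moved with the compounds too. Without TNF they summed to 2197 to 2506 CPM in vehicle and 1443 to 1602, 1298 to 1528 and 1438 to 1649 CPM with SCO, CAP7 and ROSI. With TNF the sums were 1134 to 1205 CPM alone and 813 to 1057, 987 to 1299 and 936 to 1121 CPM. Of the 6 tested markers 5, 6 and 6 fell with SCO, CAP7 and ROSI without TNF and 5, 3 and 4 with it, and none rose. The part of these marker shifts in the changes of selenium genes was not tested.

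**Figure D5:**
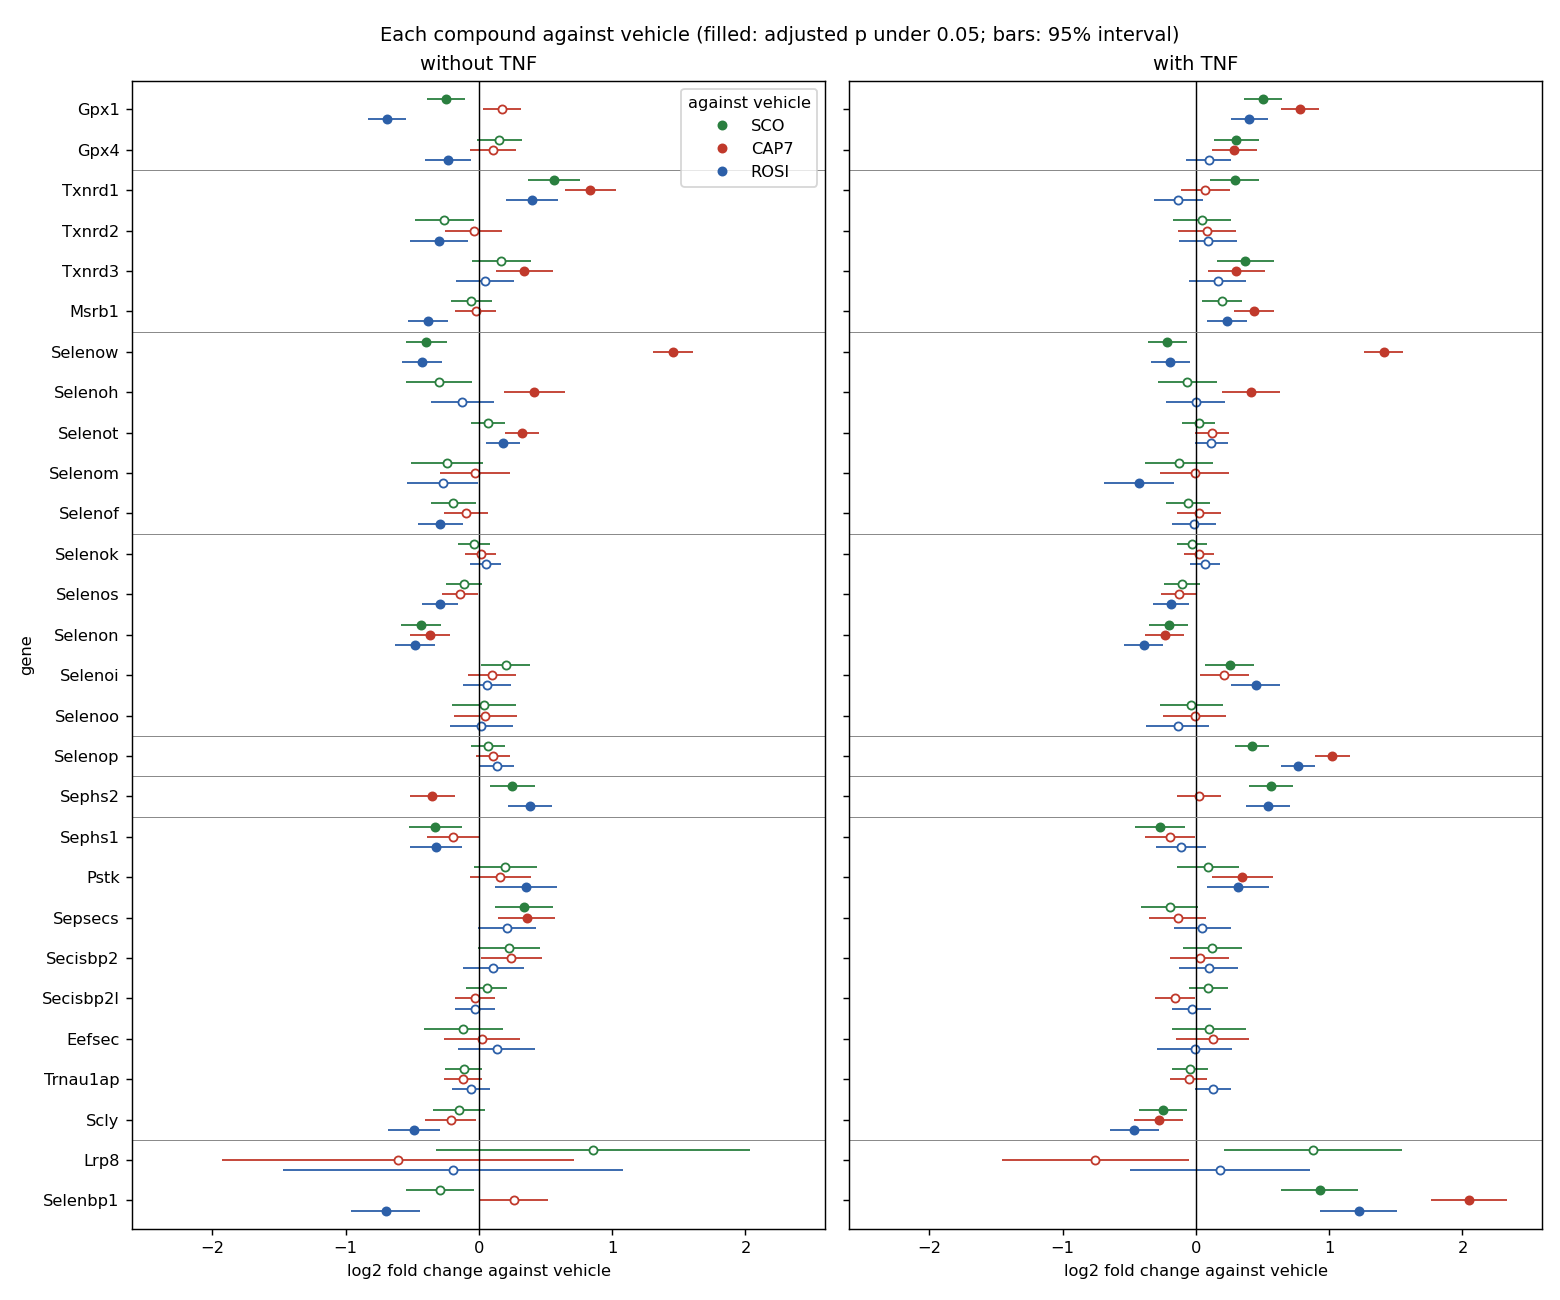
Log2 change of the 28 genes with SCO (green), CAP7 (red) and ROSI (blue) against the vehicle of the same state, without TNF on the left and with TNF on the right. Points are edgeR estimates with 95% intervals, filled where the adjusted p was under 0.05; Selenow with CAP7 stands alone at 1.46 and 1.41, and the points of Gpx1 lie below 0 for SCO and ROSI on the left and above 0 for all 3 compounds on the right.

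Pairs of compounds were set against each other within each state. Without TNF, CAP7 against ROSI gave 7 genes higher and 1 lower with CAP7, where 5.39% and 6.27% of all genes were higher and lower, and all 8 calls were kept in every alternative fit run. SCO against ROSI gave 5 higher and 0 lower (7.39% and 7.33% of all genes), and SCO against CAP7 1 higher and 5 lower (3.01% and 3.04%). With library size alone the 3 splits were 9 and 1, 6 and 0, and 1 and 5.

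Selenow was higher with CAP7 than with ROSI by 1.88 ± 0.075 (adjusted p = 1.07e-20) and lower with SCO than with CAP7 (-1.85, adjusted p = 2.66e-20). Selenoh was higher with CAP7 than with ROSI by 0.54 ± 0.11 (adjusted p = 0.00088), and SCO against CAP7 gave -0.72 ± 0.12 (adjusted p = 0.000103). Gpx1 was higher with CAP7 than with ROSI by 0.86 ± 0.071 (adjusted p = 2.37e-11), and SCO lay between them, 0.44 ± 0.071 against ROSI (adjusted p = 2.14e-05) and -0.425 ± 0.0704 against CAP7 (adjusted p = 0.000126). Sephs2 ran the other way, lower with CAP7 than with ROSI (-0.73 ± 0.081, adjusted p = 3.34e-08) and higher with SCO than with CAP7 by 0.6 ± 0.082 (adjusted p = 7.5e-06). For SCO against ROSI the difference in Sephs2 was -0.13 ± 0.081, with a 95% interval of -0.296 to 0.032.

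Txnrd1 was higher with CAP7 than with ROSI by 0.44 ± 0.093 (adjusted p = 0.00101), and Selenbp1 by 0.96 ± 0.13 (adjusted p = 8.72e-07). SCO against CAP7 gave -0.55 ± 0.13 for Selenbp1 (adjusted p = 0.00527). Msrb1 and Gpx4 were higher than with ROSI both with CAP7 (0.36 ± 0.0745 and 0.34 ± 0.084, adjusted p = 0.000838 and 0.0052) and with SCO (0.33 ± 0.075 and 0.385 ± 0.084, adjusted p = 0.00192 and 0.00117). The other two calls of SCO against ROSI were less firm. Scly, at 0.34 ± 0.097 (adjusted p = 0.0135), overlapped and was lost without any 1 of SCO replicates 1 and 3 and ROSI replicate 1 (log2 0.26 to 0.303, adjusted p from 0.055 to 0.0924), and also in a fit of the groups compared alone (adjusted p = 0.0716). Selenbp1, at 0.41 ± 0.13 (adjusted p = 0.0257), was lost without any 1 of SCO replicates 1, 2 and 4 and ROSI replicates 1 and 3 (log2 0.37 to 0.403, adjusted p from 0.0504 to 0.083). Without SCO replicate 1 or ROSI replicate 1 the count for this pair was 3. Selenot was lower with SCO than with CAP7 (-0.25 ± 0.063, adjusted p = 0.0102), lost without SCO replicate 1 and CAP7 replicate 2 in turn (-0.21 and -0.22, adjusted p = 0.0714 and 0.0538). For Selenon, which all 3 compounds lowered, the 3 pairwise differences ran from -0.066 to 0.11, none called.

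With TNF, CAP7 against ROSI gave 6 genes higher and 1 lower (3.48% and 5.09% of all genes), SCO against CAP7 3 and 6 (4.13% and 5.03%), and SCO against ROSI 1 and 1 (5.74% and 8.64%). With library size alone the splits were 7 and 1, 3 and 5, and 6 and 1, so that the count for SCO against ROSI was 7 in place of 2. The 2 genes called in that pair were Txnrd1, higher with SCO by 0.42 ± 0.091 (adjusted p = 0.000846), and Selenop, lower with SCO (-0.345 ± 0.063, adjusted p = 0.000112), neither overlapping.

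Selenow was higher with CAP7 plus TNF than with ROSI plus TNF by 1.601 ± 0.073 (adjusted p = 1.38e-18), and SCO against CAP7 gave -1.62 ± 0.073 (adjusted p = 8.36e-19). Selenbp1 was higher with CAP7 than with ROSI by 0.83 ± 0.13 (adjusted p = 3.04e-05) and lower with SCO than with CAP7 (-1.12 ± 0.13, adjusted p = 4.31e-07). Selenop had 0.26 ± 0.063 for CAP7 against ROSI (adjusted p = 0.0062), where the libraries overlapped, and -0.602 ± 0.063 for SCO against CAP7 (adjusted p = 4.03e-08). Sephs2 was lower with CAP7 than with ROSI (-0.52 ± 0.082, adjusted p = 2.99e-05) and higher with SCO than with CAP7 by 0.54 ± 0.082 (adjusted p = 3.02e-05). Lrp8 was higher with SCO than with CAP7 by 1.64 ± 0.34 (adjusted p = 0.0017), at 4.05, 4.18, 4.999 and 6.86 CPM against 1.72, 2.702, 0.612 and 1.47. The order CAP7, ROSI, SCO from high to low thus held in the means of both Selenop and Selenbp1, though ROSI and SCO were not called apart in Selenbp1 (-0.295 ± 0.14, 95% interval -0.57 to -0.02). That difference was called with no filter on low counts (adjusted p = 0.0283).

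Gpx1 was higher with CAP7 than with ROSI by 0.38 ± 0.0695 (adjusted p = 0.000253). Against CAP7, SCO gave -0.27 ± 0.069 (adjusted p = 0.00912), lost without TNF plus CAP7 replicate 3 (-0.21, adjusted p = 0.067), and also in a fit of the groups compared alone (adjusted p = 0.056). Selenoh was lower with SCO than with CAP7 (-0.48 ± 0.11, adjusted p = 0.00336). CAP7 against ROSI gave 0.42 ± 0.11 (adjusted p = 0.0103), lost without TNF plus CAP7 replicate 3 (0.34, adjusted p = 0.0593). Selenom was higher with CAP7 than with ROSI by 0.42 ± 0.13 (adjusted p = 0.0361), lost without any 1 of TNF plus CAP7 replicates 2, 3 and 4 and TNF plus ROSI replicates 2, 3 and 4 (log2 0.29 to 0.42, adjusted p from 0.0637 to 0.199), and also in a fit of the groups compared alone (adjusted p = 0.0848). Msrb1 was lower with SCO than with CAP7 (-0.24 ± 0.074, adjusted p = 0.032), lost without any 1 of TNF plus SCO replicates 3 and 4 and TNF plus CAP7 replicates 1, 2 and 3 (log2 -0.24 to -0.19, adjusted p from 0.071 to 0.16), and also with library size alone, with no filter on low counts and in a fit of the groups compared alone (adjusted p = 0.0592, 0.0679 and 0.0849). Secisbp2l, the paralog of the SECIS-binding factor, was higher with SCO than with CAP7 by 0.25 ± 0.0735 (adjusted p = 0.0282), lost without any 1 of TNF plus SCO replicates 1 and 3 and TNF plus CAP7 replicates 1 and 3 (log2 0.195 to 0.25, adjusted p from 0.0536 to 0.151), and also with no filter on low counts and in a fit of the groups compared alone (adjusted p = 0.0678 and 0.0981).

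Whether a compound acted differently with TNF than without was tested by the interaction term, the change with TNF minus the change without. It was higher in 3 and lower in 1 of the 28 genes for SCO (all genes 3.51% and 1.13%), 5 and 2 for CAP7 (10.3% and 5.92%) and 5 and 1 for ROSI (10.1% and 4.51%). These splits did not move with library size alone. Selenbp1, Selenop and Gpx1 had positive terms for all 3 compounds: 1.22 ± 0.19, 1.79 ± 0.19 and 1.92 ± 0.19 for Selenbp1 with SCO, CAP7 and ROSI (adjusted p = 2.97e-05, 3.55e-09 and 7.63e-10). For Selenop they were 0.36 ± 0.089, 0.915 ± 0.089 and 0.63 ± 0.089 (adjusted p = 0.0107, 5.62e-10 and 1.44e-06), and for Gpx1 0.75 ± 0.099, 0.603 ± 0.099 and 1.09 ± 0.099 (adjusted p = 1.28e-06, 2.16e-05 and 1.02e-10). All 3 terms share the vehicle libraries with and without TNF, so their common sign is not a count of separate results.

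Txnrd1 had negative terms, -0.77 ± 0.13 with CAP7 (adjusted p = 4.46e-05) and -0.53 ± 0.13 with ROSI (adjusted p = 0.00407), and an uncalled -0.27 ± 0.13 with SCO (adjusted p = 0.304). Without TNF its means were 21.5 CPM in vehicle and 31.8, 38.4 and 28.3 with SCO, CAP7 and ROSI, and with TNF 38.2, 46.7, 40.1 and 34.7. Msrb1 had positive terms with CAP7, 0.46 ± 0.105 (adjusted p = 0.00158), and ROSI, 0.61 ± 0.11 (adjusted p = 3.91e-05). For Selenow with CAP7 the term was -0.049 ± 0.102, with a 95% interval of -0.255 to 0.16, and for Selenoh with CAP7 -0.001 ± 0.14, interval -0.29 to 0.29, neither called.

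The remaining called terms were less firm. That of Gpx4 with ROSI, 0.328 (adjusted p = 0.0569), was not called. It was called with the stricter filter, with the replicate block and in a fit of the groups compared alone (adjusted p = 0.0363, 0.0368 and 0.0233). Sepsecs had -0.53 ± 0.15 with SCO (adjusted p = 0.03), lost without any 1 of vehicle replicate 3, SCO replicates 3 and 4, TNF replicates 1 and 2 and TNF plus SCO replicates 1 and 2 (log2 -0.52 to -0.425, adjusted p from 0.052 to 0.115), and also with no filter on low counts and with limma-voom (adjusted p = 0.0505 and 0.0552). With CAP7 it had -0.49 ± 0.15 (adjusted p = 0.0192), lost without vehicle replicate 3 and TNF replicate 2 in turn (-0.43 and -0.38, adjusted p = 0.0571 and 0.0763). Sephs2 had 0.37 ± 0.12 with CAP7 (adjusted p = 0.0242), lost without TNF plus CAP7 replicate 1 (0.299, adjusted p = 0.0823), and also with no filter on low counts (adjusted p = 0.144). Selenoi had 0.39 ± 0.13 with ROSI (adjusted p = 0.0313), lost without any 1 of vehicle replicates 1 and 4, ROSI replicates 3 and 4, TNF replicates 1, 2 and 4 and TNF plus ROSI replicates 3 and 4 (log2 0.325 to 0.38, adjusted p from 0.055 to 0.0884), and also without mitochondrial genes (adjusted p = 0.0515).

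Cells that received both TNF and a compound were also set against untreated vehicle. Of the 28 genes 7 were higher and 9 lower with TNF plus SCO (all genes 25.2% and 22.3%), 7 and 8 with TNF plus CAP7 (21.4% and 19.2%), and 6 and 7 with TNF plus ROSI (24.9% and 21.1%). With library size alone these were 7 and 10, 7 and 9, and 4 and 11. Selenop remained below vehicle in all 3, at log2 -1.17, -0.57 and -0.83 with SCO, CAP7 and ROSI, and so did Selenbp1, at -2.16, -1.04 and -1.87. Gpx1 stood above vehicle by 1.07, 1.34 and 0.965, Txnrd1 by 1.12, 0.899 and 0.695, and Selenoh by 0.45, 0.93 and 0.515, all called. Lrp8 was higher by 4.305, 2.67 and 3.602, at low counts.

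Other genes were called against vehicle with some of the compounds. Sephs2 was below vehicle with TNF plus CAP7 (-0.58 ± 0.083, adjusted p = 3.41e-07), and differed by -0.04 ± 0.082 with TNF plus SCO and -0.062 ± 0.082 with TNF plus ROSI. The ROSI difference was called lower with library size alone (adjusted p = 0.0437). Selenow was above vehicle with TNF plus CAP7, by 1.63 ± 0.074 (adjusted p = 1.42e-20), and differed by 0.006 and 0.027 with the other two. Gpx4 was higher with SCO (0.31) and CAP7 (0.296), Selenom lower with ROSI (-0.47), and Scly higher with SCO (0.39) and CAP7 (0.35). Txnrd2 and Selenon were lower with each (-0.45, -0.41 and -0.4 for Txnrd2, -0.34, -0.37 and -0.52 for Selenon), and Selenoi with SCO (-0.399) and CAP7 (-0.44). With ROSI Selenoi differed by -0.205 (adjusted p = 0.0587), and Sephs1 by -0.215 with SCO (adjusted p = 0.0621), neither called. Both were called lower with RLE factors, library size alone, the stricter filter, DESeq2 and the groups compared alone. The adjusted p ran from 0.00164 to 0.0389 for Selenoi and from 0.0203 to 0.0493 for Sephs1. Selenoi was also called without mitochondrial genes (adjusted p = 0.0418) and Sephs1 with limma-voom (adjusted p = 0.0419).

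A further set of calls against vehicle was small and depended on the libraries or settings used. With TNF plus SCO, Msrb1 (-0.22) was lost without vehicle replicate 2 and TNF plus SCO replicate 3 in turn (-0.19 and -0.18, adjusted p = 0.0587 and 0.065), and also with no filter on low counts (adjusted p = 0.0564). Pstk (-0.31) was lost without vehicle replicate 3 and TNF plus SCO replicate 1 in turn (-0.25 and -0.27, adjusted p = 0.109 and 0.0836), and also with no filter on low counts (adjusted p = 0.0929). Selenoo (-0.34) was lost without vehicle replicate 3 and TNF plus SCO replicate 4 in turn (-0.25 and -0.27, adjusted p = 0.106 and 0.0723). Sepsecs (-0.27) was lost without any 1 of vehicle replicates 1, 2 and 4 and TNF plus SCO replicates 1 and 2 (log2 -0.26 to -0.22, adjusted p from 0.073 to 0.124), and also with no filter on low counts (adjusted p = 0.111), whereas Secisbp2 (0.34 ± 0.11, adjusted p = 0.0109) was kept. With TNF plus CAP7, Selenoo (-0.315) was lost without any 1 of vehicle replicate 3 and TNF plus CAP7 replicates 2 and 3 (log2 -0.295 to -0.22, adjusted p from 0.069 to 0.164), and also with no filter on low counts (adjusted p = 0.071). Secisbp2l (-0.21) was lost without TNF plus CAP7 replicate 1 (-0.17, adjusted p = 0.0854), and also with no filter on low counts (adjusted p = 0.0954). With TNF plus ROSI, Secisbp2 (0.32) was lost without any 1 of vehicle replicate 4 and TNF plus ROSI replicates 1 and 3 (log2 0.265 to 0.29, adjusted p from 0.0575 to 0.0728), and also with library size alone (adjusted p = 0.195). Msrb1 (-0.18) was lost without any 1 of vehicle replicates 2 and 3 and TNF plus ROSI replicates 1, 2 and 3 (log2 -0.19 to -0.15, adjusted p from 0.0581 to 0.132), and also with no filter on low counts (adjusted p = 0.125). Selenok (0.15) was lost without any 1 of vehicle replicates 1, 3 and 4 and TNF plus ROSI replicates 1 and 2 (log2 0.11 to 0.15, adjusted p from 0.0542 to 0.148), and also with RLE factors, with library size alone, with no filter on low counts, with the stricter filter, in a fit of the groups compared alone and without mitochondrial genes (adjusted p = 0.0591, 0.919, 0.157, 0.0503, 0.111 and 0.0573). Selenoo at -0.44 ± 0.12 (adjusted p = 0.00219) was kept.

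Selenoproteins and the factors that make them were next set side by side. The summed level of the 20 selenoproteins was 1852 ± 36.8 CPM in vehicle (SD, n = 4), 1831 ± 31.6 with SCO, 2039 ± 79.6 with CAP7 and 1754 ± 40.45 with ROSI. With TNF it was 1502 ± 47.3 CPM alone, 1759.8 ± 54.2 with SCO, 2120.3 ± 144 with CAP7 and 1786 ± 59.98 with ROSI. Selenop alone held 657 CPM of the sum in vehicle and 218 CPM with TNF. Without it the sum was 1195 ± 31.45 CPM in vehicle and 1285 ± 39.3 with TNF, the opposite order. That order rested on Gpx1, at 236 CPM in vehicle and 349 with TNF: without it as well the sums were 959 ± 26.3 and 936 ± 23.8 CPM, vehicle again the higher. The 8 factors summed to between 203 and 220.0 CPM in the means of the 8 groups, with single libraries from 195.6 to 227 CPM. The lowest group was ROSI, at 200.3 to 205 CPM, and the highest TNF alone, at 213 to 227 CPM.

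The main fit called 10, 5, 7, 11, 9, 8 and 9 of the 18 tested selenoproteins in the 7 comparisons with a control. The order is TNF, then SCO, CAP7 and ROSI without TNF, then SCO, CAP7 and ROSI with TNF. In the same order 55.6, 27.8, 38.9, 61.1, 50, 44.4 and 50% of the 18 were called, and 54.2%, 19.3%, 30.3%, 37.4%, 21.3%, 32.2% and 35.9% of all genes, so that the share for TNF was close to that of all genes. Of the 8 factors 2, 2, 1, 3, 2, 2 and 2 were called in the same order. No test was made between the lists, and their genes differ in depth. Gene by gene, 5 of the 28 were called in none of the 7 comparisons, 8 in 1 or 2, 8 in 3 or 4 and 7 in 5 or more. Over all tested genes 26.6%, 33.6%, 21.6% and 18.1% fell in those classes, beside 17.9%, 28.6%, 28.6% and 25% of the 28. The 5 were Selenok, Secisbp2, Secisbp2l, Eefsec and Trnau1ap, so that the genes for both SECIS-binding paralogs, the elongation factor and the tRNA-associated protein were among them. In the main fit their largest log2 difference in any of the 7 was 0.24 in size, in Secisbp2 with CAP7, with a 95% interval of 0.013 to 0.47. With library size alone Trnau1ap was called lower with CAP7 and ROSI without TNF (log2 -0.231 and -0.199, adjusted p = 0.00823 and 0.0181). Secisbp2l was then called lower with CAP7 and ROSI under TNF (log2 -0.258 and -0.187, adjusted p = 0.00578 and 0.0398).

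At the other end, Selenow was called in all 7, higher in 3 and lower in 4. Selenon was called in 6, each time lower. Gpx1 and Sephs2 were called in 6 with both signs, and Txnrd1 in 5, each time higher. With library size alone Txnrd1 was called lower with ROSI under TNF (adjusted p = 0.0111). Scly was called in 5, higher with TNF and lower in 4 comparisons with a compound, and Selenbp1 in 5, lower in 2 and higher in 3. The levels of these genes by library are those of the plot of 8 genes, apart from Selenon. Some of the calls counted here were lost without single libraries, as given above. They were those of Selenow with TNF and with SCO and ROSI under TNF. Selenon, Txnrd1 and Scly lost theirs with SCO under TNF, and Sephs2 with SCO without TNF.

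The place of the recoded codon was set against the calls of the main fit as a description, with no test. Of the 18 tested selenoproteins, 10 have the first TGA more than 50 bases before the last exon junction and 8 do not. With TNF in vehicle cells 3 of the 10 rose and 2 fell, and 1 and 4 of the 8 did (all genes 26.7% and 27.5%), with median log2 changes of -0.018 and -0.26. With SCO without TNF 0 of the 10 rose and 3 fell, and 2 and 0 of the 8 did (all genes 10.3% and 8.99%), with median log2 changes of -0.245 and 0.103. With library size alone Selenoh, Selenof and Txnrd2, all among the 10, were also called lower there (adjusted p = 0.0282, 0.0197 and 0.0304). The rise of Sephs2, among the 8, was then lost (adjusted p = 0.12). With CAP7 without TNF 3 of the 10 rose and 1 fell, and 2 and 1 of the 8 did (all genes 15.2% and 15%), with median log2 changes of 0.11 and 0.032. With ROSI without TNF 1 of the 10 rose and 6 fell, and 2 and 2 of the 8 did (all genes 18.4% and 19%), with median log2 changes of -0.28 and 0.048. In cells with TNF, under SCO 3 of the 10 rose and 2 fell, and 4 and 0 of the 8 did (all genes 13.2% and 8.09%), with median log2 changes of -0.019 and 0.225. Under CAP7 5 of the 10 rose and 1 fell, and 2 and 0 of the 8 did (all genes 18% and 14.2%), with median log2 changes of 0.205 and 0.047. Under ROSI 2 of the 10 rose and 3 fell, and 3 and 1 of the 8 did (all genes 19.6% and 16.3%), with median log2 changes of 0.045 and 0.12. The side with the higher share of rises or of falls was not the same in all 7 comparisons. Whether decay of these messages had a part in this was not tested.

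Genes that work with these products were taken as lists written from general knowledge. Of the other mouse selenoproteins Selenov, Dio1, Dio3 and Gpx2, none passed the filter on low counts. Of 9 tested genes for charging and modifying the selenocysteine tRNA, binding SECIS elements or selenoprotein uptake, 5 rose and none fell with TNF (all genes 26.7% and 27.5%), among them Ncl, for nucleolin, an RNA-binding protein known to bind SECIS elements (0.94 ± 0.069, adjusted p = 1.47e-14), and Sars, the seryl-tRNA synthetase that charges the tRNA (0.52 ± 0.101, adjusted p = 3.34e-05). Trit1, which modifies the anticodon loop of this tRNA, rose with each compound in cells with TNF, by 0.445 ± 0.11 with SCO, 0.599 ± 0.11 with CAP7 and 0.76 ± 0.11 with ROSI (adjusted p = 0.00239, 3.25e-05 and 4.32e-07). Ncl fell with CAP7 (-0.44 ± 0.069) and ROSI (-0.32 ± 0.069) there. Of the 9, 2 rose and 1 fell with SCO, 4 and 1 with CAP7, and 3 and 2 with ROSI in cells without TNF, where all genes gave 10.3% and 8.99%, 15.2% and 15%, and 18.4% and 19%. In cells with TNF 1 rose and 0 fell with SCO, 1 and 2 with CAP7, and 1 and 1 with ROSI. All genes gave 13.2% and 8.09%, 18% and 14.2%, and 19.6% and 16.3% there.

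Of 20 tested genes for cysteine-based relatives and thiol partners, 5 rose and 7 fell with TNF (all genes 26.7% and 27.5%). Txn1, the thioredoxin that Txnrd1 reduces, rose by 0.74 ± 0.074 (adjusted p = 4.21e-11), the same direction as Txnrd1. The mitochondrial peroxidase Prdx3, which depends on mitochondrial thioredoxin, fell by 0.75 ± 0.076 (adjusted p = 6.67e-11), the same direction as Txnrd2. Msra, the reductase for the other form of oxidised methionine than that repaired by Msrb1, fell by 1.63 ± 0.079 (adjusted p = 3.98e-20), from 50.8, 48.1, 48.99 and 45.7 to 16, 13.3, 14.9 and 18.2 CPM. It rose with every compound without TNF (0.62, 0.645 and 0.75 with SCO, CAP7 and ROSI) and with TNF (0.98, 1.29 and 1.43). Over the list 9 rose and 3 fell with SCO, 7 and 4 with CAP7 and 7 and 4 with ROSI without TNF, and 7 and 1, 8 and 1, and 5 and 4 with TNF. Over all genes the shares that rose and fell were 10.3% and 8.99%, 15.2% and 15%, and 18.4% and 19% without TNF and 13.2% and 8.09%, 18% and 14.2%, and 19.6% and 16.3% with it, in the same order.

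Partners of the endoplasmic reticulum selenoproteins moved in a few genes. Of 8 tested, 1 rose and 3 fell with TNF (all genes 26.7% and 27.5%). Derl1, a channel protein of the disposal route in which the products of Selenos and Selenok take part, fell by 0.74 ± 0.062 (adjusted p = 5.29e-13), while Selenos and Selenok were not called. Uggt1, the folding sensor that the product of Selenof binds, rose by 0.42 ± 0.073 (adjusted p = 5.5e-06). Derl1 rose with each compound, by 0.47, 0.63 and 0.815 with SCO, CAP7 and ROSI without TNF and by 0.47, 0.77 and 0.91 with TNF. Of the 8, 1 rose and 0 fell, 3 and 2, and 3 and 1 without TNF, and 1 and 1, 2 and 1, and 2 and 0 with it. All genes gave 10.3% and 8.99%, 15.2% and 15%, and 18.4% and 19% without TNF. With TNF they gave 13.2% and 8.09%, 18% and 14.2%, and 19.6% and 16.3%.

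Of 7 genes for thyroid hormone response and for the pathway of Selenoi, 1 rose and 4 fell with TNF (all genes 26.7% and 27.5%). Pcyt2, the enzyme one step before Selenoi, fell by 0.84 ± 0.078 (adjusted p = 6.38e-12), the same direction as Selenoi, and Chpt1, the related choline enzyme (-0.96 ± 0.084, adjusted p = 1.22e-12). With each compound on top of TNF Pcyt2 rose, by 0.33, 0.575 and 0.57 with SCO, CAP7 and ROSI, and Chpt1 by 0.98, 1.27 and 1.49. Selenoi itself was called higher with SCO and ROSI there. Of the 7 listed genes 3 rose and 0 fell with SCO, 3 and 0 with CAP7, and 5 and 1 with ROSI on top of TNF. All genes gave 13.2% and 8.09%, 18% and 14.2%, and 19.6% and 16.3%.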

How the data were processed

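The deposited table held whole-number counts per gene for all 32 libraries. The genome build was GRCm39, and the submitters' processing notes list HTSeq 2.0.5, STAR 2.7.11b, cutadapt 4.9, limma 3.60.6 and R 4.4.1. How strand and multiple mapping were handled is not stated there. A result on overlapping genes is not reported here. Groups came from GEO's labels. Ensembl IDs were matched to a reference table of mouse gene symbols, which named 51880 of 57186 IDs, with Sars for Sars1. Counts were filtered with edgeR's filterByExpr, scaled by TMM and fitted over all 8 groups (quasi-likelihood, edgeR 4.0.16, 24 residual degrees of freedom) with Benjamini-Hochberg adjustment over 14428 genes. The 19 comparisons share this fit, whose script was tested on simulated data.

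The members and lists were chosen with earlier results of these data known. All members could be named; from other lists, up to 4 called genes of lowest p per comparison. Alternatives were RLE factors, library size alone, no filter, a filter of 5 CPM in 4 libraries, DESeq2 1.42.0, limma-voom 3.58.1, a replicate block, only the groups compared, and each library left out in turn. Leaving out mitochondrial genes was added after seeing the data.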

Additional observations from a re-analysis of the deposited data

Results flagged for a closer look

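Single libraries stood away from the other 3 of their group in 16 of 224 groups of 4 (7.14%), by Dixon's criterion at the 95% level, where chance flags about 1 in 20. Low values were those of Selenof in SCO replicate 3 (111.6 CPM) and TNF plus SCO replicate 3 (130.5 CPM), Selenon in CAP7 replicate 3 (24.18 CPM), Selenoi in TNF plus SCO replicate 4 (41.16 CPM), Gpx4 in ROSI replicate 1 (67.1 CPM), Sephs1 in vehicle replicate 4 (29.14 CPM), Sepsecs in vehicle replicate 3 (14.84 CPM) and Selenbp1 in SCO replicate 3 (63.03 CPM). High values were those of Selenom in TNF replicate 1 (18.69 CPM), Txnrd1 in TNF replicate 4 (42.97 CPM), Sephs2 in CAP7 replicate 2 (21.41 CPM), Pstk in vehicle replicate 3 (15.5 CPM), Secisbp2l in ROSI replicate 3 (56.85 CPM), Scly in vehicle replicate 3 (26.64 CPM) and TNF replicate 4 (36.14 CPM), and Lrp8 in SCO replicate 2 (0.8959 CPM).

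Compound effects differed between cells with and without TNF, by the interaction test at an adjusted p under 0.05 (edgeR), in these members. For SCO the log2 terms were 1.219 for Selenbp1, 0.754 for Gpx1, 0.357 for Selenop and -0.533 for Sepsecs. For CAP7 they were 1.79 for Selenbp1, 0.915 for Selenop, 0.603 for Gpx1, 0.464 for Msrb1, 0.373 for Sephs2, -0.494 for Sepsecs and -0.766 for Txnrd1. For ROSI they were 1.921 for Selenbp1, 1.088 for Gpx1, 0.629 for Selenop, 0.614 for Msrb1, 0.389 for Selenoi and -0.532 for Txnrd1.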

How the results depend on the processing

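No called value changed sign under any alternative run. The count of members called for SCO against ROSI with TNF was 7 with library size alone, against 2, and the cause was not tested. With 1 library left out at a time, the count for SCO with TNF ran from 6 to 9, against 12, and that for SCO against ROSI without TNF from 3 to 6, against 5; fewer samples entered each fit. All other counts stayed within 1.5 times the value given. Of the 177 calls on single members over the 19 comparisons, 46 were lost without at least 1 library, and 29 further calls appeared. Lost and gained calls were 16 and 33 with library size alone, 23 and 5 with no filter on low counts, 13 and 15 in fits of the groups compared alone, 1 and 11 with the stricter filter, 1 and 7 with limma-voom, 0 and 6 with DESeq2, 1 and 2 with RLE factors, and 2 and 1 without mitochondrial genes. The replicate block ended no call. With the replicate block the count for SCO with TNF was 12, and 3 members gained a call. Libraries of the same number in different groups had a median correlation of 0.011 over 112 pairs (lowest -0.106, highest 0.157, 3 over 0.1). For different numbers the median was -0.00519. In 16 of 32 libraries the mean correlation was highest with their own number, more than an even spread over the 4 numbers would give. The labels name no batch, and the main fit did not take the numbers as pairs. Low counts limit Lrp8 without TNF, at 0 to 12 counts per library, and leave Gpx3 and Dio2 untested.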
